A study of Mus musculus with 12 samples.

Results

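Clock output and modifier genes are the genes that carry time of day from the core clock loop to the rest of the cell, and those that tune the loop. The set held 9 genes: Dbp, Tef, Hlf, Nfil3, Bhlhe40, Bhlhe41, Ciart, Rora and Csnk1e. They were chosen by gene symbol, and 20 of the 56605 probes of the array carried one of these symbols. RNA of the hypothalamus of male mice was measured on 12 single-color arrays, with 3 arrays in each of 4 groups. WT were wild-type littermates that did not swim, and KO were homozygous Asmt-knockout mice that did not swim. Exercised WT were wild-type mice and KE were Asmt-knockout mice trained by daily swimming in the morning for several weeks. All 4 groups shared the C57BL/6 background, male sex, an age label of 6-7 weeks, which is the age at which training began, and a 12-hour light:dark cycle. The knockout came from founder mice with a short Cas9-made deletion in Asmt, which encodes the last enzyme of melatonin synthesis, backcrossed to wild-type littermates. C57BL/6 mice make little melatonin to begin with, which limits the contrast between the genotypes. The hour at which the hypothalamus was collected is not given in the sources used here, and nothing in them says that each array was 1 mouse, so p-values measure the spread between arrays.

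The clock of a mammalian cell is a loop in which CLOCK and BMAL1 bind E-box sequences and switch on genes whose products later switch CLOCK and BMAL1 off. Dbp, Tef and Hlf encode activators that bind D-box sequences and pass the rhythm on to target genes, and Nfil3 encodes a repressor that competes for the same sequences. Bhlhe40, Bhlhe41 and Ciart encode repressors of CLOCK and BMAL1, Rora encodes a nuclear receptor that activates the gene of BMAL1, and Csnk1e encodes a kinase that phosphorylates PER proteins. The hypothalamus holds the suprachiasmatic nucleus, the master pacemaker, but the whole hypothalamus also holds many other nuclei, so that fewer cells of a type and less RNA per cell cannot be told apart.

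The promoter sequences of the members show which of these elements lie just before the start of transcription. RefSeq windows (build GRCm38.p6) were found for 8 of the 9 genes, all but Bhlhe40, with 12 start sites in all, and the 250 bases before each start were searched on both strands. The E-box CACGTG, which reads the same on both strands, was present in windows of 3 members, against 6.02% of all 32851 windows. The ROR half-site AGGTCA, or TGACCT on the other strand, was present in the window of 1 member, against 14% of all windows. The D-box, searched as TTATGTAA or TTACGTAA, was present in the windows of 0 members, against 0.931% of all windows. Members are counted here as genes with the motif in any window, and the background as single windows, so the units differ. The 3 motifs did not overlap one another. The windows that held a motif are printed because Ciart had the largest difference of the 9 brightest probes in KE versus KO, Tef and Bhlhe41 were the other members with an E-box, and Nfil3 was the member with a ROR half-site. Capitals mark the motifs.
Ciart, chr3:95882229-95882478, minus strand: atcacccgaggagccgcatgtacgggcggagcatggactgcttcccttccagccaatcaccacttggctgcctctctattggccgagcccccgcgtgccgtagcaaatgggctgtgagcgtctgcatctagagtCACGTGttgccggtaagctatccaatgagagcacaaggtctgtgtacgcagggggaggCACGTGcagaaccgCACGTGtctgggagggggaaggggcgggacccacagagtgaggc
Tef, first start, chr15:81802423-81802672, plus strand: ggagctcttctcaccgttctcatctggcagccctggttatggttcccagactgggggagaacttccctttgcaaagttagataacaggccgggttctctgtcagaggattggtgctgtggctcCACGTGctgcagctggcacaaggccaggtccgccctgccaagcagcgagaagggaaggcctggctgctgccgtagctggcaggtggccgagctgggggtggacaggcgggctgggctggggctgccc
Tef, second start, chr15:81811164-81811413, plus strand: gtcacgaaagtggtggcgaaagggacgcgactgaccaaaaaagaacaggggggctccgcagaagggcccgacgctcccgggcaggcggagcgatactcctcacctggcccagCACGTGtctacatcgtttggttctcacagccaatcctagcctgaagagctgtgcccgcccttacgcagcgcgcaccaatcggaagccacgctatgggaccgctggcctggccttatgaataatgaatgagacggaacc
Bhlhe41, chr6:145865421-145865670, minus strand: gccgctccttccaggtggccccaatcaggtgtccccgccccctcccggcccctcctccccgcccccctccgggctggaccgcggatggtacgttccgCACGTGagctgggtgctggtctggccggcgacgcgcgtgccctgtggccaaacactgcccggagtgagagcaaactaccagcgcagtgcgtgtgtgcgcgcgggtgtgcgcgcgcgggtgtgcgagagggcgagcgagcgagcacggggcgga
Nfil3, chr13:52981040-52981289, minus strand: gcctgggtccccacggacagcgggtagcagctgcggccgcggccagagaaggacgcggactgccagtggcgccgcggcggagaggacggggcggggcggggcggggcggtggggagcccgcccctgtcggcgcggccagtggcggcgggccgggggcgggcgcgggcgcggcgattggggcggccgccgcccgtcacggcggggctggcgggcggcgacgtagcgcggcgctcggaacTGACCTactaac
The Ciart window held 3 E-boxes, which began 116, 58 and 44 bases before the start. At least 3 E-boxes were found in 20 of all 32851 windows (0.0609%). Each Tef window held 1 E-box, 127 and 138 bases before its start, and the Bhlhe41 window held 1 at 153 bases. The Nfil3 half-site began 12 bases before the start. No window of Dbp, Hlf, Rora or Csnk1e held one of these letters. A match is a description of the sequence, and binding was not measured.

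All 20 member probes were tested, out of 35230 probes that the scanner software called well above background in a whole group of 3 arrays, for 1 group or more. Of the members, 18 of 20 probes had that call on all 12 arrays. The exceptions were a dim Bhlhe41 probe, called on 10 arrays, and a dim Rora probe, called on 11. Levels below are log2 signals that the authors quantile-normalized over all arrays, a log2 fold change is a difference between group means on that scale, and the brightest probe of a gene stands for it unless another is named. No member probe was saturated.

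The arrays had been scanned on 2 slides, and the slides were not balanced over the groups. The 3 WT arrays were on slide 1 together with KO replicates 1 and 2, whereas slide 2 carried KO replicate 3 and the swimming groups. The first principal component of all tested probes held 47.3% of the variance and put the 5 arrays of slide 1 on one side and the 7 arrays of slide 2 on the other. For 21.8% of all tested probes the arrays of slide 1 and slide 2 did not overlap, and among the members this held for 6 of 20 probes and for 4 of the 9 brightest probes (Bhlhe40, Bhlhe41, Ciart and Rora). In exercised WT versus WT swimming and slide cannot be told apart without KO replicate 3, and once that array is left out the same holds for KE versus KO. All control arrays then lie on slide 1 and all swimming arrays on slide 2. Values without that array, or with the slide as a block, are given beside the results of the members. Those without it do not separate swimming from slide. The fit without a block uses for each probe a spread shared by all 4 groups. KO lies on both slides, so that spread holds part of the difference between the slides, also in exercised WT versus WT. For Rora in exercised WT versus WT the SE was 0.08, and 0.05 without KO replicate 3, at the same value of -0.16. A count of 0 after adjustment is read with this limit. Of 13 hypothalamus markers, 12 were well above background on all 12 arrays and Sim1 on 9. The 1 Asmt probe was well above background on 0 of 12 arrays, with levels from 1.83 to 2.49, and so could not check the genotype labels. The 4 endothelium markers summed, as linear normalized signal, to 12408 to 13834 on slide 1 and to 10734 to 11853 on slide 2, with KO replicate 3 at 11737. The 4 pineal markers, of which Tph1 and Asmt were well above background on 0 arrays, summed to 352 to 464 on slide 1 and to 474 to 541 on slide 2. The sums of the hypothalamus, striatum, choroid plexus, cortex and thalamus, astrocyte, oligodendrocyte and microglia markers overlapped between the slides. Between the groups, endothelium markers summed to 10734 to 11429 in KE and to 11737 to 13156 in KO, and to 11375 to 11853 in exercised WT and 13144 to 13834 in WT. Microglia markers summed to 19185 to 19698 in KE and to 19888 to 21506 in KO. In KE versus KO the log2 fold changes of single markers ranged from -0.22 to 0.29 (endothelium) and from -0.21 to 0.38 (microglia), so not every marker was lower. In exercised WT versus WT those of the endothelium markers ranged from -0.33 to -0.006. The part of any marker list in the results below was not tested.

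The first question was which of the clock output and modifier genes differed after swimming. With a Benjamini-Hochberg adjusted p under 0.05 in limma's moderated test, 0 of 9 members passed in exercised WT versus WT and 0 of 9 in KE versus KO. Over all tested probes 0% passed in exercised WT versus WT and 0.0199% in KE versus KO. At an unadjusted p of at most 0.05, 3 of 9 members were past the threshold in exercised WT versus WT, against 26% of all tested probes, and 4 of 9 in KE versus KO, against 21.1%. The methods' t-test, without adjustment, also counted 3 and 4, but not of the same members: Rora took the place of Ciart in exercised WT versus WT, and Nfil3 that of Rora in KE versus KO. It counted 0 members after adjustment, where it called 1635 of 35230 tested probes in exercised WT versus WT and 0 in KE versus KO. When slide was fitted as a block, 0 of 9 members were past an unadjusted p of 0.05 in exercised WT versus WT and 1 of 9 in KE versus KO. No member reached the screening criterion of the study's methods, a fold of 2 or more at an unadjusted p up to 0.05, which 2.19% of all tested probes met in exercised WT versus WT and 1.21% in KE versus KO. Over all 20 member probes, 7 were past an unadjusted p of 0.05 in exercised WT versus WT and 6 in KE versus KO. The arrays of the groups did not overlap for 8 in exercised WT versus WT, against 37.6% of all tested probes, and for 6 in KE versus KO, against 21.5%. The median log2 fold change of the 9 members was -0.06 in exercised WT versus WT and -0.05 in KE versus KO, and the median of all tested probes was -0.04 in both. Without KO replicate 3, the KO array on slide 2, 2 members passed the adjusted threshold in exercised WT versus WT, where 18% of all tested probes did. In KE versus KO 3 passed, where 24.3% did. Without that array swimming and slide cannot be told apart in either comparison.

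**Figure D1:**
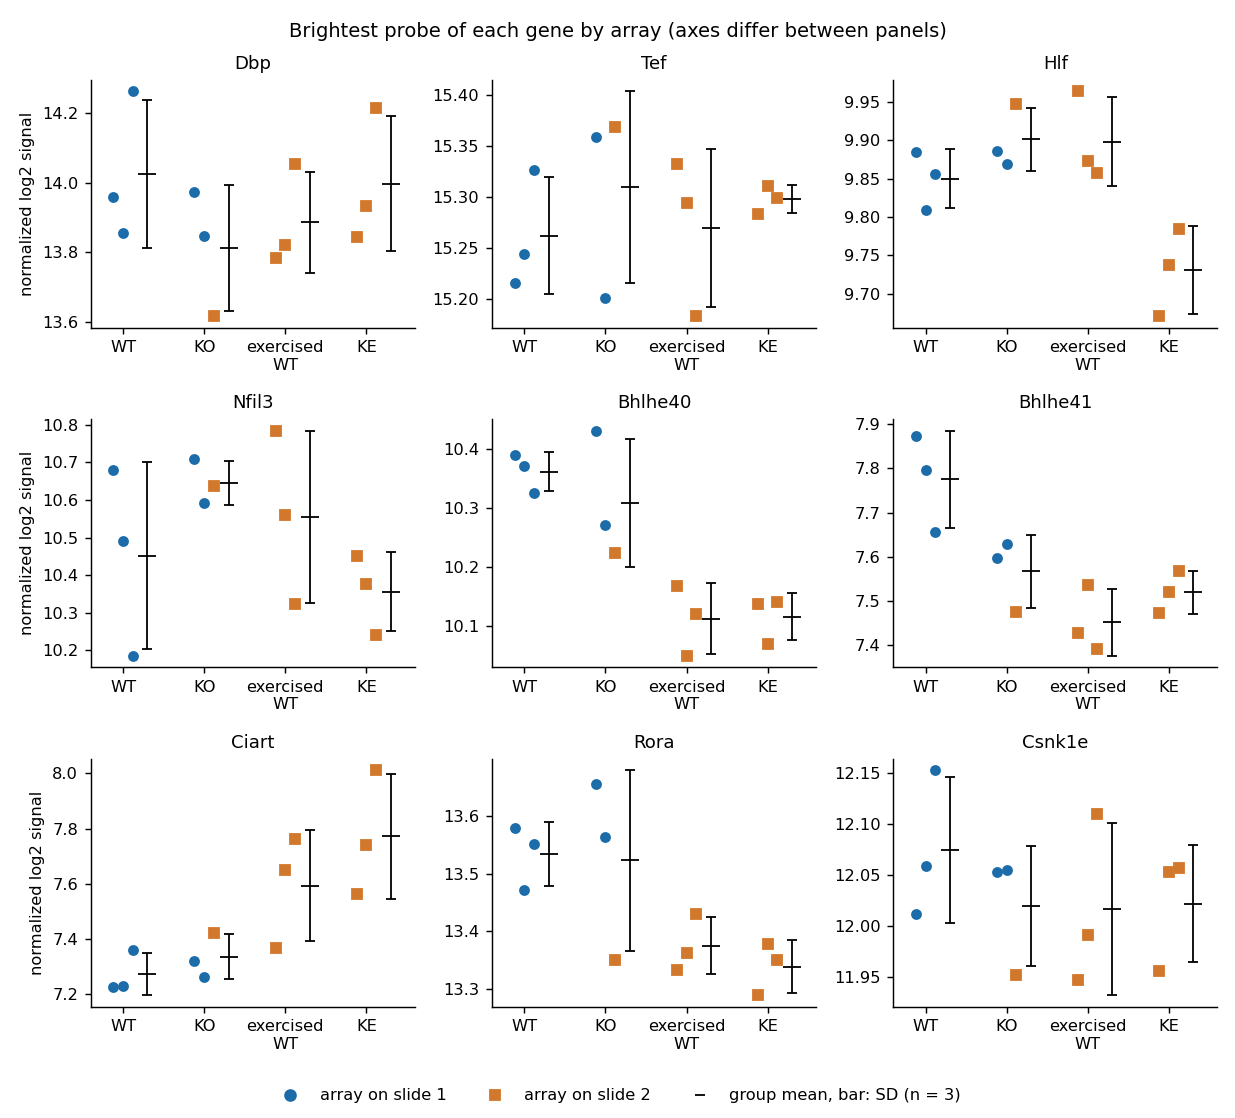
Normalized log2 signal (vertical axis, a different range in each panel) of the brightest probe of the 9 genes, by group (horizontal axis). Each point is 1 array, circles are slide 1 and squares slide 2, and the bar beside them is the group mean with SD (n = 3). Ciart lies higher, and Bhlhe40, Bhlhe41 and Rora lie lower, on slide 2 than on slide 1, and KE lies below the other groups in Hlf.

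Among the repressors of CLOCK and BMAL1, Ciart had the largest difference in KE versus KO, and Bhlhe41 and Ciart had differences of similar size in exercised WT versus WT. Ciart encodes CHRONO, a repressor that binds BMAL1, and its probe lies at chr3:95682433-95682492 (array annotation, build mm9). The levels were 7.23, 7.23 and 7.36 in WT, 7.32, 7.26 and 7.42 in KO, 7.37, 7.65 and 7.76 in exercised WT, and 7.56, 7.74 and 8.01 in KE. All swimming arrays lay above their own controls, and the lowest exercised WT array lay below KO replicate 3. KE was higher than KO by 0.44 on the log2 scale (SE 0.12; unadjusted p = 0.0059; limma adjusted p = 0.15), a 1.35-fold difference. Exercised WT was higher than WT by 0.32 (SE 0.12; unadjusted p = 0.028; limma adjusted p = 0.15). KO replicate 3 was the highest of the controls, and with the slide as a block the differences were 0.35 for KE versus KO and 0.19 for exercised WT versus WT. Without KO replicate 3 the KE versus KO difference was 0.48 (SE 0.14; limma adjusted p = 0.038). The interaction, which is the KE versus KO difference minus the exercised WT versus WT difference, was 0.11, with a 95% interval from -0.28 to 0.51.

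The dimmer Ciart probe, at chr3:95685193-95685252, did not show this difference. Its levels were 6.35, 6.13 and 6.32 in WT, 6.32, 6.33 and 6.27 in KO, 6.48, 6.48 and 6.22 in exercised WT, and 6.13, 6.22 and 6.39 in KE. The 4 groups overlapped. Its KE versus KO interval ran from -0.27 to 0.15, below the fitted value of the brighter probe. Averaging both probes gave a KE versus KO difference of 0.19 for Ciart.

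Bhlhe40 encodes DEC1, a repressor that competes at E-boxes, and was measured by 1 probe, at chr6:108616309-108616368. The levels were 10.39, 10.37 and 10.32 in WT, 10.43, 10.27 and 10.22 in KO, 10.17, 10.05 and 10.12 in exercised WT, and 10.14, 10.07 and 10.14 in KE. All 6 swimming arrays lay below all 6 control arrays, and KO replicate 3 was the lowest control. Exercised WT was lower than WT, with a log2 fold change of -0.25 (SE 0.06; unadjusted p = 0.0029; limma adjusted p = 0.093). KE was lower than KO, with a log2 fold change of -0.19 (SE 0.06; unadjusted p = 0.013; limma adjusted p = 0.17). With the slide as a block these values were -0.12 and -0.11, and without KO replicate 3 they were -0.25 (limma adjusted p = 0.018) and -0.24 (limma adjusted p = 0.026). The interaction was 0.06, with a 95% interval from -0.14 to 0.26.

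Bhlhe41 encodes DEC2, the close relative of DEC1, and its brighter probe, which the array annotation gives to transcript variant 2, lies at chr6:145806764-145806823. The levels were 7.87, 7.80 and 7.66 in WT, 7.60, 7.63 and 7.47 in KO, 7.43, 7.54 and 7.39 in exercised WT, and 7.47, 7.52 and 7.57 in KE. WT lay above all other arrays, and KO and KE overlapped. Exercised WT was lower than WT, with a log2 fold change of -0.32 (SE 0.07; unadjusted p = 0.0012; limma adjusted p = 0.093), and without KO replicate 3 the limma adjusted p was 0.011. With the slide as a block the value was -0.19. Bhlhe41 was the 1 of 9 members past an unadjusted p of 0.05 in KO versus WT, with a log2 fold change of -0.21 (SE 0.07; unadjusted p = 0.016; limma adjusted p = 0.85), and within slide 1 that value was -0.16. The KE versus KO interval ran from -0.21 to 0.11. The interaction was 0.28 (SE 0.10; unadjusted p = 0.022; limma adjusted p = 0.58). The dim Bhlhe41 probe, given to transcript variant 1, ranged from 4.02 to 4.96 over the 12 arrays, with overlap of all groups.

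**Figure D2:**
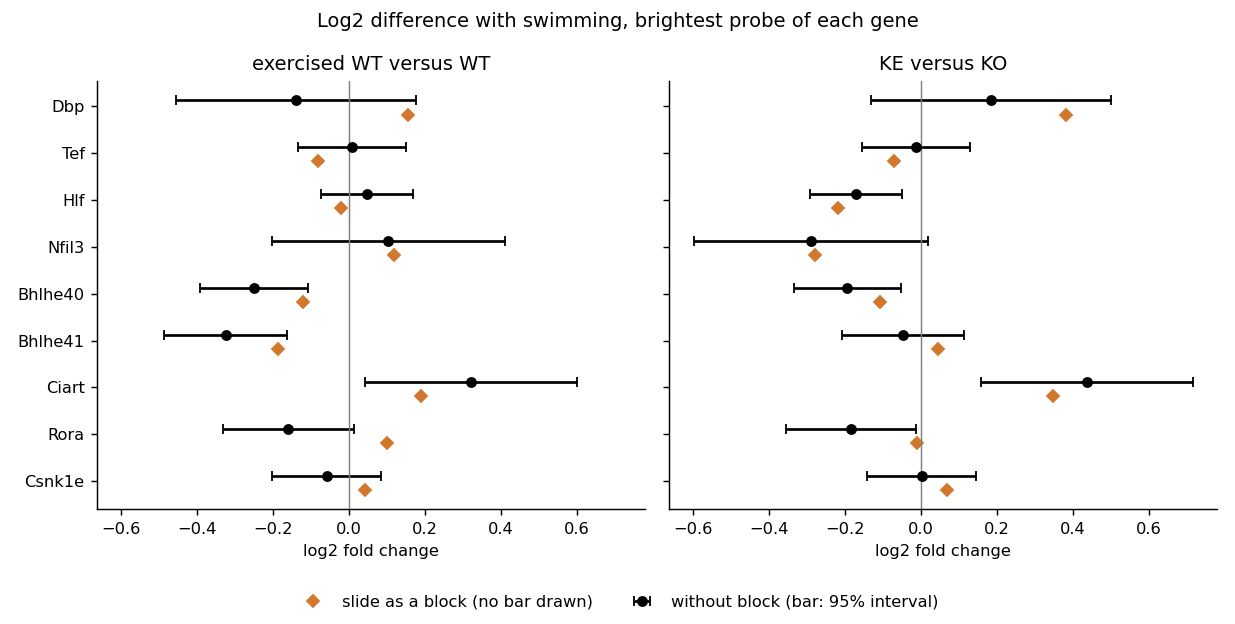
Log2 fold change (horizontal axis) of the brightest probe of the 9 genes (vertical axis) in exercised WT versus WT (left) and KE versus KO (right). Circles are the fit without a block, with bars for the 95% interval, and diamonds are the values with the slide as a block. The diamonds lie nearer to 0 than the circles for Bhlhe40 and Ciart, and on the other side of 0 for Dbp and Rora in exercised WT versus WT (0.15 and 0.10, against -0.14 and -0.16), as well as for some values near 0. In KE versus KO the diamonds lie farther from 0 than the circles for Dbp (0.38, against 0.19) and Hlf (-0.22, against -0.17). They also do for smaller values such as Tef and Csnk1e. The diamonds carry no bar, and the SEs of the Dbp and Rora diamonds in exercised WT versus WT were 0.24 and 0.09.

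By brightest probe, 1 of the D-box activators, Hlf, was past an unadjusted p of 0.05 in limma's moderated test. The dimmer Tef probes A_55_P2912692 and A_52_P173309, described below, were also past it. Hlf encodes a D-box activator related to DBP, and its 1 probe lies at chr11:90201236-90201295. The levels were 9.89, 9.81 and 9.86 in WT, 9.89, 9.87 and 9.95 in KO, 9.96, 9.87 and 9.86 in exercised WT, and 9.67, 9.74 and 9.78 in KE. The 3 KE arrays lay below the other 9 arrays, which overlapped one another. KE was lower than KO, with a log2 fold change of -0.17 (SE 0.05; unadjusted p = 0.010; limma adjusted p = 0.16). KE was lower than exercised WT, a comparison that lies wholly on slide 2, with a log2 fold change of -0.17 (SE 0.05; unadjusted p = 0.011; limma adjusted p = 0.67). Between the same groups the 7 striatum markers summed to 36763 to 37374 in KE and 38345 to 60965 in exercised WT, and the 6 choroid plexus markers to 4211 to 4550 and 5004 to 6505, without overlap. Of the striatum markers 2 were lower at an unadjusted p of at most 0.05 in limma's moderated test and 0 after adjustment, with a median log2 fold change of -0.58 over the list. Of the choroid plexus markers 0 were past that unadjusted p, with a median of -0.18. The brightest markers, Penk for striatum and Clic6 for choroid plexus, weigh most in these linear sums. The part of either list in the Hlf value was not tested. With the slide as a block the KE versus KO value was -0.22 (limma adjusted p = 0.41). Exercised WT versus WT was 0.05, with a 95% interval from -0.07 to 0.17, and the interaction was -0.22 (SE 0.08; unadjusted p = 0.017; limma adjusted p = 0.57).

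Dbp, a gene with a strong daily rhythm in many tissues, was measured by 2 probes, of which the brighter lies at chr7:52965265-52965324. The levels were 13.96, 13.85 and 14.26 in WT, 13.97, 13.85 and 13.62 in KO, 13.78, 13.82 and 14.05 in exercised WT, and 13.84, 13.93 and 14.22 in KE. The 4 groups overlapped, and the SD within a group was 0.15 to 0.21. The 95% intervals ran from -0.46 to 0.18 for exercised WT versus WT, from -0.13 to 0.50 for KE versus KO and from -0.53 to 0.10 for KO versus WT. The lowest array was KO replicate 3, and with the slide as a block KE versus KO was 0.38 (SE 0.19) and exercised WT versus WT 0.15 (SE 0.24). The other Dbp probe lay between 13.63 and 14.23, also with overlap of the groups.

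Tef encodes the remaining D-box activator, and 4 probes measured it. The brightest, at chr15:81657221-81657280 and given to transcript variant 1, lay between 15.18 and 15.37 on the 12 arrays. The groups overlapped, and the 95% intervals ran from -0.13 to 0.15 for exercised WT versus WT and from -0.15 to 0.13 for KE versus KO. Another probe, A_55_P2912692 at chr15:81647233-81647292, differed from it and was singled out after its values were seen. The array annotation gives this probe the symbol Tef but no RefSeq transcript. Its levels were 7.81, 7.93 and 7.82 in WT, 7.81, 7.55 and 8.10 in KO, 8.33, 8.16 and 8.19 in exercised WT, and 8.36, 8.44 and 8.47 in KE. All swimming arrays lay above all control arrays, with KO replicate 3 the highest control. The log2 fold change of this probe was 0.60 in KE versus KO (SE 0.12; limma adjusted p = 0.10) and 0.38 in exercised WT versus WT (SE 0.12; limma adjusted p = 0.11). With the slide as a block these values were 0.32 and -0.04 (SE 0.14 for the latter), so no direction was shown in exercised WT versus WT. Without KO replicate 3 they were 0.74 (limma adjusted p = 0.00072) and 0.38 (limma adjusted p = 0.014). The dim Tef probe A_52_P173309, also singled out after its values were seen, had levels of 5.13, 5.46 and 5.63 in WT, 5.51, 5.39 and 6.04 in KO, 5.86, 5.96 and 5.90 in exercised WT, and 5.55, 5.90 and 5.94 in KE. Exercised WT lay above WT without overlap, and KO replicate 3 was the highest of all arrays. Its exercised WT versus WT value was 0.50 (SE 0.18; limma adjusted p = 0.13), or -0.09 with the slide as a block, and without KO replicate 3 the limma adjusted p was 0.036. The remaining Tef probe ranged from 12.50 to 12.83.

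Nfil3, the D-box repressor, was measured by 2 probes that overlap, at chr13:53062578-53062637 and chr13:53062585-53062644, and so share most of their sequence. The brighter had levels of 10.68, 10.49 and 10.19 in WT, 10.71, 10.59 and 10.64 in KO, 10.78, 10.56 and 10.32 in exercised WT, and 10.45, 10.38 and 10.24 in KE. KE lay below KO without overlap, and the WT and exercised WT arrays overlapped both. The KE versus KO value had a 95% interval from -0.60 to 0.02, and the interaction one from -0.83 to 0.04. The dimmer probe, singled out after its values were seen, had a KE versus KO log2 fold change of -0.40 (SE 0.12; limma adjusted p = 0.16), with the slide as a block -0.26, and without KO replicate 3 -0.47 (limma adjusted p = 0.026).

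**Figure D3:**
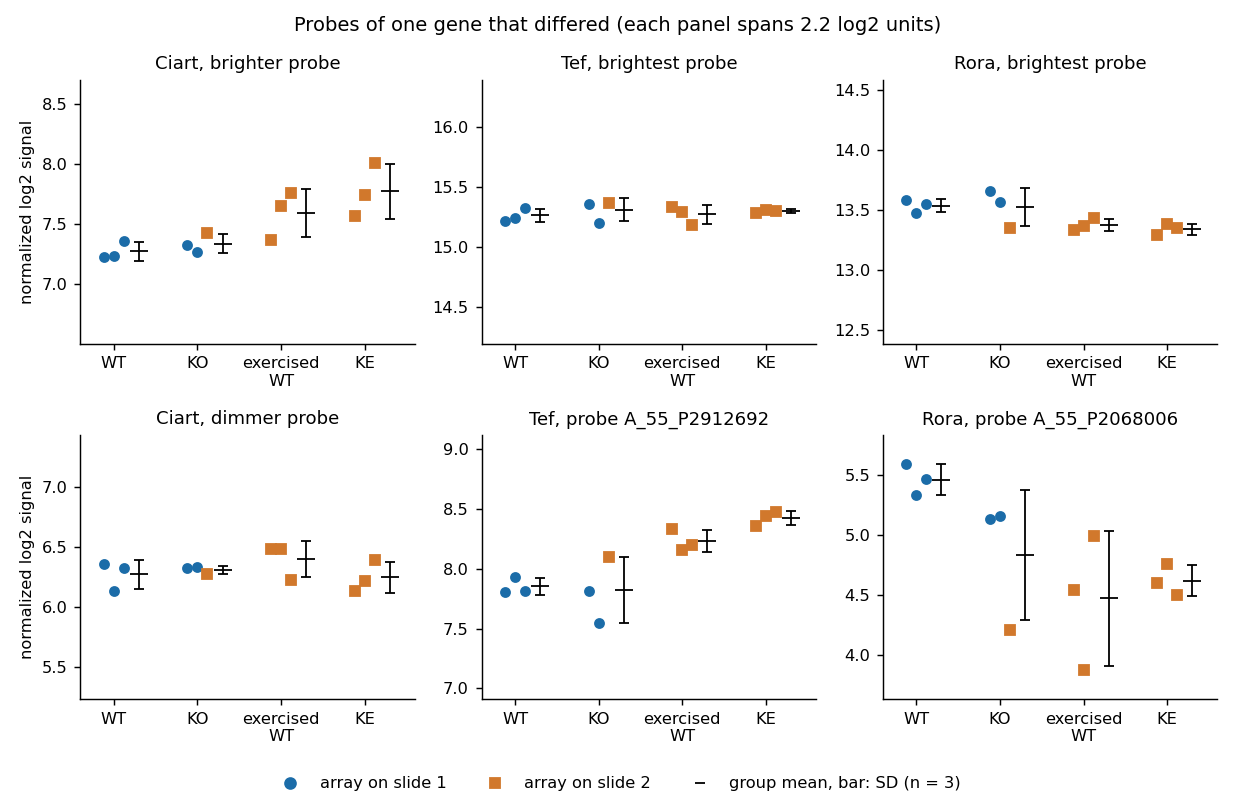
Normalized log2 signal (vertical axis, 2.2 log2 units in every panel) by group (horizontal axis) for pairs of probes of Ciart, Tef and Rora, with the brightest probe above and another below. Points are arrays, circles slide 1 and squares slide 2, and bars are group means with SD (n = 3). The dimmer Ciart probe overlaps between the groups, while the lower Tef and Rora probes show wider differences than the upper ones, with KO replicate 3 on the side of the other slide 2 arrays.

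Rora, the nuclear receptor, was measured by 3 probes. The brightest, at chr9:69227536-69227595 and given to transcript variant 1, had levels of 13.58, 13.47 and 13.55 in WT, 13.65, 13.56 and 13.35 in KO, 13.33, 13.36 and 13.43 in exercised WT, and 13.29, 13.38 and 13.35 in KE. KO replicate 3 lay within the range of the swimming arrays. KE was lower than KO, with a log2 fold change of -0.18 (SE 0.08; unadjusted p = 0.038; limma adjusted p = 0.22). Without KO replicate 3 the value was -0.27 (limma adjusted p = 0.011), and when slide was fitted as a block it was -0.01 (limma adjusted p = 0.99). Those 2 settings differ in whether KO replicate 3 is left out or is the only KO array set against KE.

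The dim Rora probe A_55_P2068006, given to transcript variant 3, lies at chr9:68511835-68511894 and was singled out after its values were seen. Its levels were 5.59, 5.34 and 5.47 in WT, 5.14, 5.16 and 4.21 in KO, 4.55, 3.88 and 5.0 in exercised WT, and 4.60, 4.76 and 4.50 in KE. Slide 1 lay wholly above slide 2, and KO replicate 3, at 4.21, was the 1 array on which the probe was not well above background. Its exercised WT versus WT log2 fold change was -0.99 (SE 0.30; limma adjusted p = 0.10), the largest of any member probe in that comparison, and when slide was fitted as a block, which rests on KO replicate 3, it was -0.06. Without KO replicate 3 its limma adjusted p was 0.021. The remaining Rora probe lay between 9.56 and 9.89 with overlap of the groups.

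Csnk1e, the kinase of PER proteins, was measured by 3 probes, of which the brightest lies at chr15:79248330-79248389. The levels were 12.01, 12.06 and 12.15 in WT, 12.05, 12.05 and 11.95 in KO, 11.95, 11.99 and 12.11 in exercised WT, and 11.96, 12.05 and 12.06 in KE. The groups overlapped. The 95% intervals ran from -0.20 to 0.09 for exercised WT versus WT, from -0.14 to 0.15 for KE versus KO and from -0.20 to 0.09 for KO versus WT. The Csnk1e probe A_55_P2122555, singled out after its values were seen, had levels of 10.97, 10.89 and 10.93 in WT, 10.86, 10.84 and 10.79 in KO, 10.71, 10.86 and 10.66 in exercised WT, and 10.68, 10.80 and 10.83 in KE. WT lay above all other arrays. Its exercised WT versus WT log2 fold change was -0.18 (SE 0.07; unadjusted p = 0.019; limma adjusted p = 0.13), or -0.12 with the slide as a block, and KO versus WT was -0.10 (limma adjusted p = 0.85). The remaining Csnk1e probe lay between 10.16 and 10.39.

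The next question was whether the knockout itself differed from wild type, at rest and after swimming. At an adjusted p under 0.05, 0 of 9 members passed in KO versus WT, in KE versus exercised WT and in the swimming by genotype interaction, and 0% of all tested probes did. At an unadjusted p of at most 0.05 the counts were 1 of 9 (Bhlhe41) in KO versus WT, against 5.48% of all tested probes, 1 of 9 (Hlf) in KE versus exercised WT, against 6.66%, and 2 of 9 (Bhlhe41 and Hlf) in the interaction, against 7.75%. The methods' t-test, without adjustment, counted 0 members in KO versus WT and 1 in KE versus exercised WT, with no share over all tested probes given. The screening criterion was met by 0 members in these comparisons, against 0.224% of all tested probes in KO versus WT, 0.253% in KE versus exercised WT and 0.593% in the interaction. The groups did not overlap for 3 of 20 member probes in KO versus WT, against 8.58% of all tested probes, and for 2 of 20 in KE versus exercised WT, against 19.5%. The fitted values of the 9 members ranged from -0.21 to 0.19 in KO versus WT and from -0.20 to 0.18 in KE versus exercised WT.

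The other genes of the clock were read from lists fixed beside the members. Of 17 genes of the core loop, among them Clock, Arntl, the Per and Cry genes and Nr1d1, 0 passed the adjusted threshold in any of the 5 comparisons. In exercised WT versus WT 2 of 17 were higher and 0 lower at an unadjusted p of at most 0.05, where 11.6% of all tested probes were higher and 14.3% lower, and in KE versus KO 0 were higher and 1 lower, where 8.04% were higher and 13% lower. The genes counted here and below are named after their values were seen. They were Cry1, at 1.29 (SE 0.43), and Nr1d2, at 0.20 (SE 0.08), in exercised WT versus WT. When slide was fitted as a block Cry1 was -0.56 and Nr1d2 was 0.02, and no SE is given for these block values. Cry1 was the 1 of 17 that met the screening criterion there. In KE versus KO it was Clock, at -0.13, or -0.08 with the slide as a block. Of 8 clock-controlled genes, such as Wee1, Nampt and Usp2, 0 passed the adjusted threshold in any of the 5 comparisons. In exercised WT versus WT 4 of 8 were higher and 0 lower at an unadjusted p of at most 0.05, and the median log2 fold change of the 8 was 0.13, against -0.04 for all tested probes. These 4 were Tsc22d3 (0.45), Por (0.29), Wee1 (0.24) and Usp2 (0.22), and with the slide as a block their values were 0.61, 0.11, 0.13 and 0.24. In KE versus KO 1 was higher (Por, 0.23) and 1 lower (Nampt, -0.23), with a median of 0.01, and with the slide as a block the values were 0.11 and -0.08. Without KO replicate 3, 1 of the 17 and 3 of the 8 passed the adjusted threshold in exercised WT versus WT, where 18% of all tested probes did. In KE versus KO 1 and 2 passed, where 24.3% did. Swimming and slide cannot be told apart in that setting, and 0 genes of either list passed with the slide as a block.

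The members were also compared with each other array by array, after the mean of each group was subtracted, which asks whether an array that was high for one gene was high for another. Of 36 pairs, 0 passed a Benjamini-Hochberg adjusted p of 0.05 in an exact two-sided permutation test within groups (1296 arrangements). The pair with the highest correlation was Dbp and Csnk1e, with Pearson's r = 0.84 (permutation p = 0.0077; adjusted p = 0.14) and Spearman's rho = 0.87 (permutation p = 0.0031; adjusted p = 0.11) over 12 arrays. Nfil3 went opposite to Csnk1e, with r = -0.83 (permutation p = 0.012; adjusted p = 0.14) and rho = -0.76 (permutation p = 0.024; adjusted p = 0.29). Nfil3 also went opposite to Ciart, with r = -0.74 (permutation p = 0.0085; adjusted p = 0.14) and rho = -0.77 (permutation p = 0.016; adjusted p = 0.29). Without the 2 arrays farthest from the median of the first-named gene, r was 0.82 for Dbp and Csnk1e, -0.66 for Nfil3 and Csnk1e and -0.71 for Nfil3 and Ciart. Over the 7 arrays of slide 2 alone, with no group mean subtracted, r was 0.80, -0.81 and -0.93 in the same order. Arrays with the same replicate number shared some of these deviations. Ciart was highest in replicate 3 of all 4 groups, and Nfil3 was highest in replicate 1 of all 4 groups and lowest in replicate 3 of 3 groups. With the means of the replicate numbers subtracted as well, an alternative chosen after seeing the data, r was 0.90 for Dbp and Csnk1e, -0.83 for Nfil3 and Csnk1e and -0.07 for Nfil3 and Ciart. The permutation p treats the arrays of a group as exchangeable, and may be too small where arrays share a replicate number. The KO arrays also lie on both slides, so their deviations hold the difference between the slides. Without the KO arrays r was 0.82 for Dbp and Csnk1e, -0.94 for Nfil3 and Csnk1e and -0.78 for Nfil3 and Ciart.

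**Figure D4:**
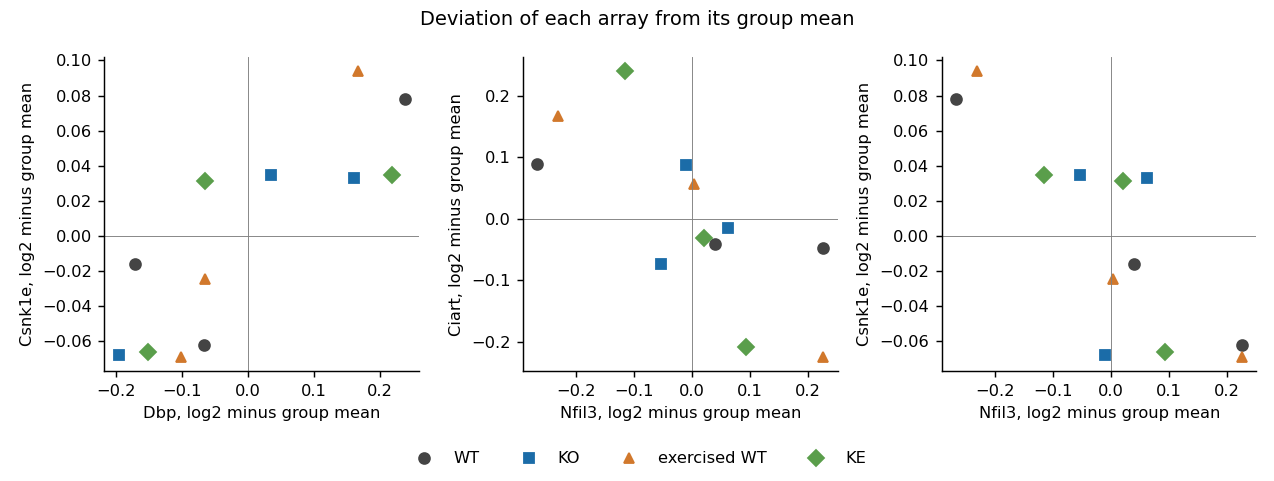
Log2 signal minus the group mean for Csnk1e against Dbp, Ciart against Nfil3, and Csnk1e against Nfil3 (both axes in log2 units), with 1 point per array and a symbol for each group. The points rise for Dbp and Csnk1e (r = 0.84) and fall for the pairs with Nfil3 (r = -0.74 and -0.83).

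The genes whose pattern was most like that of Dbp were taken from 18265 other genes, each by its brightest tested probe, after the mean of each slide was subtracted. They were Hist1h3d (r = 0.91), Ednrb (r = 0.90), Ppargc1a (r = 0.90), Pfkfb1 (r = 0.89) and Efna1 (r = 0.89), over 12 arrays that share tissue, platform and normalization. Hist1h3d encodes a histone, Ednrb an endothelin receptor, Ppargc1a a transcriptional coactivator of energy metabolism, Pfkfb1 an enzyme of glycolysis control and Efna1 an ephrin ligand. On the same measure Ciart had r = 0.83 (rank 43) and Csnk1e r = 0.80 (rank 83), and Nfil3 had r = -0.80 (rank 18148).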

How the data were processed

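Hypothalamus RNA was hybridized to 12 single-color Agilent arrays, and the groups were taken from the labels. The authors deposited scanner output, with the intensity of each spot after background subtraction by Agilent Feature Extraction 10.7.1.1 (per the submitters' processing notes), and a table of log2 values that the authors had quantile-normalized over all arrays, which was used here. In that table the authors' raw intensity lay within 0.01 (log2) of the scanner intensity for 56513 to 56588 of 56605 probes per array. Between 61.6% and 67.9% of the 59305 spots per array were well above background, and the number of arrays limits the precision. The authors' 4 comparison tables hold fold changes and p-values of an unpaired test and were not used, nor were their 24 columns of normalized values and 48 columns of flags per sample.

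A probe was tested when detected on all 3 arrays of at least 1 group (35230 probes). In R 4.3.3, limma 3.58.1 estimated the 4 group means, p-values were adjusted over all tested probes (Benjamini-Hochberg), and the code was tested on simulated data. The members and gene lists were chosen with earlier results of these data known. A fold with its SE and p was printed for the brightest probe of a member where its unadjusted p was at most 0.05. Other members were given by intervals. List genes were to be given as counts, but those past an unadjusted p of 0.05 in the swimming comparisons were also named with their values. Slides were read from the scanner output. Alternatives were quantile normalization of the scanner signal, scaling by the 75th percentile, normexp correction with an offset of 50, other detection filters, the methods' t-test, only the groups compared, a trended prior, the slide and the replicate number as blocks, the mean of the probes of each gene (18266 genes), and removal of each array in turn. With the slide as a block, KE versus KO rests on KO replicate 3, and exercised WT versus WT on the difference between the slides within KO. Promoter windows came from RefSeq (GRCm38.p6), while probe positions are mm9, and the 2 builds were not compared. Python 3.11.15, pandas 2.3.3 and matplotlib 3.10.9 were used for tables and plots.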

Additional observations from a re-analysis of the deposited data

Results flagged for a closer look

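For Hlf, all 3 KE arrays lay below the KO mean and all 3 exercised WT arrays above the WT mean, and the difference of the swimming effects (knockout minus wild-type) was -0.22 on the log2 scale (SE 0.08; limma adjusted p = 0.57). Exercised WT versus WT was 0.05, with a 95% interval from -0.07 to 0.17, and -0.02 when slide was fitted as a block, the same sign as KE versus KO (-0.22), so opposite directions were not shown.

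The Csnk1e probe A_55_P2501349 met the same criterion with a smaller difference. Its KE arrays lay below the KO mean and its exercised WT arrays above the WT mean, and the difference of the swimming effects was -0.11 (SE 0.09; limma adjusted p = 0.82). Its KE versus KO value turned from -0.05 to 0.01 with the slide as a block. Neither difference passed the test of the interaction.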

How the results depend on the processing

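The number of members with an adjusted p under 0.05 was 0 under every alternative in KO versus WT, KE versus exercised WT and the interaction. Leaving out 1 array gave counts from 0 to 3 in KE versus KO and from 0 to 2 in exercised WT versus WT. The nonzero counts came from leaving out KO replicate 3, where swimming and slide cannot be told apart. By brightest probe, the members called then were Bhlhe40, Ciart and Rora in KE versus KO, and Bhlhe40 and Bhlhe41 in exercised WT versus WT. Of the 20 member probes, 5 passed in each comparison. Among all tested probes, 24.3% passed for KE versus KO, against 18% for exercised WT versus WT. Under the other alternatives the number of members called was 0 in both comparisons. Over all tested probes, 7 passed in KE versus KO, against 0 to 19 under the alternatives that kept all arrays of both groups, and 8577 without KO replicate 3. In exercised WT versus WT 0 passed, against 1635 with the methods' t-test, 2958 with only the groups compared and 6353 without KO replicate 3. The 11 log2 fold changes of brightest probes printed with an unadjusted p kept their direction in all 257 values under the alternatives, and 252 also kept their side of the adjusted threshold. Many alternatives leave a difference between group means as it was, such as other detection filters, the methods' t-test or leaving out an array of another group. For those values the direction was fixed in advance. The probes singled out after their values were seen are not in this count. The smallest sizes were 0.19 for Ciart in KE versus KO with probes averaged per gene, -0.01 for Rora in KE versus KO with the slide as a block, and -0.002 for Bhlhe41 in KO versus WT with probes averaged per gene. The methods' t-test was not run for the interaction, and no comparison of exercised WT with WT within a slide was possible. Over all tested probes, arrays with the same replicate number did not all deviate together (r from -0.19 to 0.24 over 12 pairs, 3 of them over 0.1, and in 6 of 12 pairs the array correlated best with its own number), so the numbers were not taken as pairs, and with the replicate number as a block 0 members passed in each of the 5 comparisons.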
